A study of Mus musculus with 4 samples.

Results

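The mitochondrial carrier genes of the Slc25 family were examined in soleus muscle from mdx mice. A gene was included if its symbol began with Slc25a followed by a number, with 1 exception. By this rule the family held 46 of the 24054 gene symbols measured, and 38 of them passed edgeR's filter on low counts and were tested. All 4 muscles came from female mdx mice of the C57BL/10ScSn background, which lack dystrophin because of a mutation in its gene and are a model of Duchenne muscular dystrophy. Infusions into the femoral vein began at 8 weeks of age and were given once a month until the 12-month endpoint. In the mCDC group (2 muscles) the infusions held mouse cardiosphere-derived cells at passage 5, which are cells grown out of heart tissue fragments, here from 1 mouse heart of the same background without the mutation. In the vehicle group (2 muscles) they held the culture medium alone. RNA-seq gave between 22481391 and 27187425 expected counts per library, a 1.21-fold range.

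Mitochondrial carriers are small proteins that sit, with few exceptions, in the inner mitochondrial membrane and exchange metabolites between the cytosol and the matrix. They bring in ADP and phosphate for ATP synthesis, send ATP out, and move the intermediates of the citric acid cycle, amino acids, cofactors, nucleotides and iron. Skeletal muscle, and the soleus above all with its slow oxidative fibres, depends on the ADP/ATP and phosphate carriers for the energy of contraction. The carriers of aspartate, glutamate and malate move reducing power from glycolysis into the matrix through the malate-aspartate shuttle.

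The family was dominated by the carriers that serve ATP synthesis. To compare levels between genes, counts scaled to a common library size (CPM) were divided by the length of the longest annotated transcript. Slc25a4 (ENSMUSG00000031633.4, GRCm38 chr8:46206797-46211284), the ADP/ATP carrier of heart and muscle, had 2615 and 2569 CPM per kb after mCDCs (replicates 1 and 2) and 2091 and 2427 after vehicle (replicates 1 and 2). Pairs of values below are in this order. It made up 70.1% and 68.5% of the family's summed level after mCDCs and 67.2% and 70.2% after vehicle. When the median transcript length was used in place of the longest, its mean share was 59.9%. Slc25a3, the phosphate carrier (ENSMUSG00000061904.12, chr10:91116574-91124059), came second with 14.0% to 15.8% of the family. Slc25a11, the oxoglutarate/malate carrier (ENSMUSG00000014606.14, chr11:70644196-70647479), was next with 4.24% to 4.84%.

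Below these 3 genes the levels fell steeply. Slc25a5, the second ADP/ATP carrier (ENSMUSG00000016319.3, chrX:36795651-36798807), had 54.5 to 89.7 CPM per kb over the 4 libraries, and Slc25a12, the aspartate/glutamate carrier of muscle and brain (ENSMUSG00000027010.16, chr2:71271063-71367749), had 56.4 to 59.1. These neighbours overlapped, so their order was not settled by these libraries. Slc25a39, a carrier of glutathione, followed with 32.6 to 46.3 CPM per kb, then the mitoferrin Slc25a28 with 24.6 to 27.7 and the ATP-Mg/phosphate carrier Slc25a23 with 18.9 to 24.1. Among these 8 genes, neighbours in the order did not overlap in any library, other than Slc25a5 and Slc25a12. From Slc25a22, the mitochondrial glutamate carrier, at 12.5 to 25.5 CPM per kb downwards, the ranges of neighbouring genes mostly overlapped. With the median transcript length the first 3 genes kept their places, but Slc25a23, Slc25a22 and Slc25a39, at 94.0, 92.0 and 86.3 CPM per kb on average, came above Slc25a5 and Slc25a12 at 64.5 and 57.8, so the order below Slc25a11 depends on the length used.

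**Figure D1:**
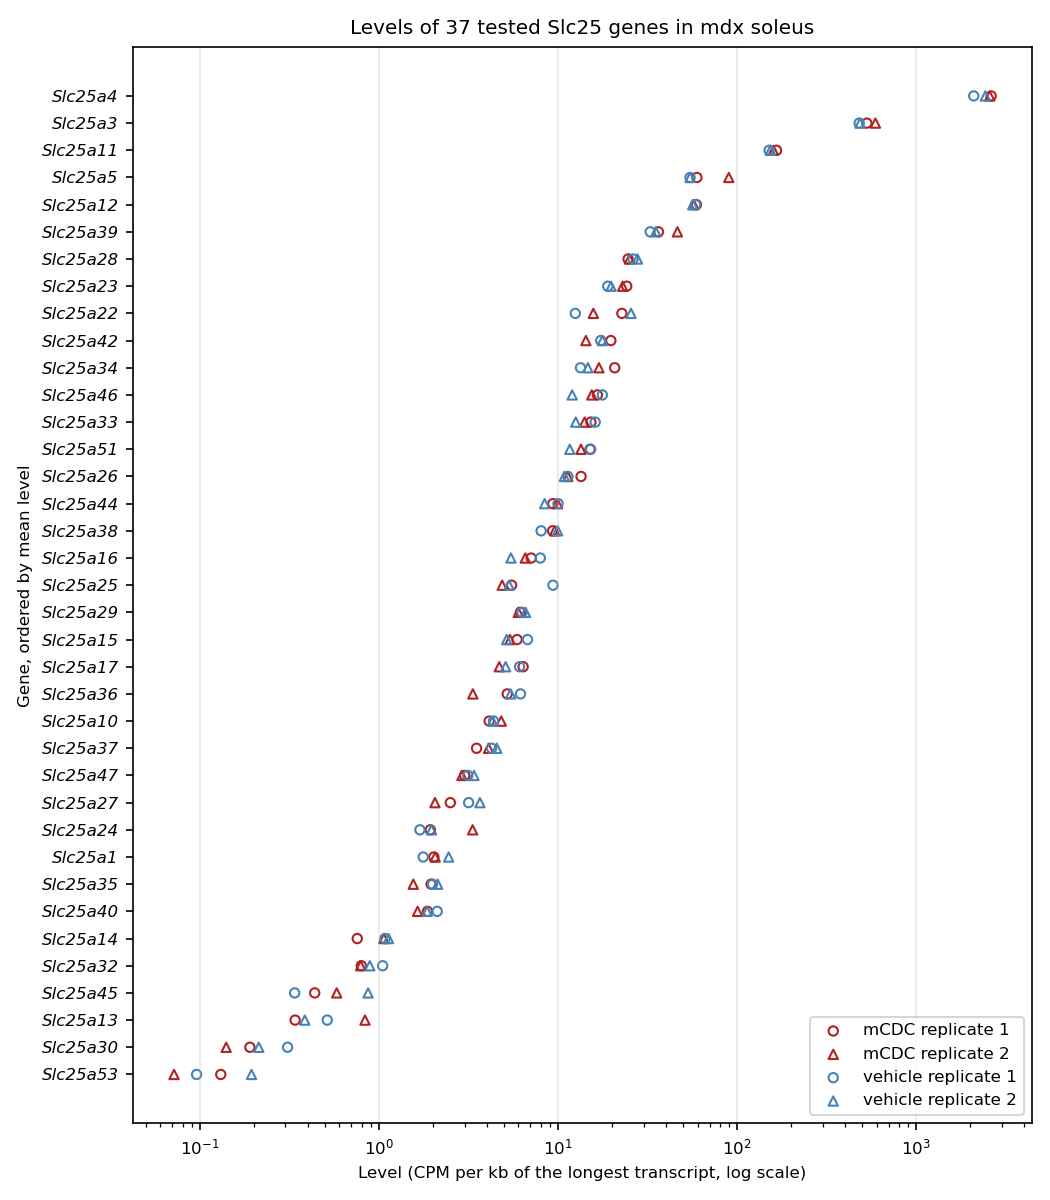
Level of 37 of the 38 tested Slc25 genes in CPM per kb of the longest transcript (log scale), ordered by mean level, with 1 symbol per library (red, mCDC; blue, vehicle; circle, replicate 1; triangle, replicate 2). Slc25a4 lies at or above 2091 CPM per kb in all 4 libraries, while Slc25a53 lies below 0.2. The symbols of neighbouring genes mostly overlap from Slc25a22 downwards.

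8 members did not pass edgeR's filter on low counts. Slc25a2, Slc25a18, Slc25a21, Slc25a31, Slc25a41, Slc25a43 and Slc25a48 had at most 23 counts in any library, and Slc25a54 had none. Slc25a31 is the ADP/ATP carrier of the male germ line and was seen with 1 count in an mCDC library and 2 in a vehicle library. Slc25a18, the second glutamate carrier, had 3 and 23 counts after mCDCs and 9 and 5 after vehicle. Slc25a41, an ATP-Mg/phosphate carrier, had no count after mCDCs and 2 and 1 after vehicle. At this depth a count of 0 allows up to 3 counts in a library, or 0.109 to 0.137 CPM. DESeq2, run without that filter, tested all of these but Slc25a54 and called none.

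To determine whether mCDC infusions changed the family, the 4 libraries were compared with edgeR's quasi-likelihood F-test on all 13652 genes with enough counts. The study took genes with more than a 1.5-fold difference and p under 0.05, which is read here as an unadjusted p, and a gene past both limits is termed called. None of the 38 tested Slc25 genes was called in either direction. Over all genes tested, 1.26% were called higher and 2.74% lower. Without the fold minimum, 3 of the 38 members (7.89%) passed the unadjusted threshold, namely Slc25a5 and Slc25a34 with more RNA in mCDC muscles and Slc25a27 with less, against 6.94% of all genes. After Benjamini-Hochberg adjustment over all genes, the smallest adjusted p of a member was 0.684 (edgeR). No gene in the whole table had an adjusted p under 0.05 with this test, whereas DESeq2 gave 48 such genes and edgeR's likelihood ratio test 66, none of them in the family.

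As a group the family was centred on no change. The log2 fold change of mCDC over vehicle was positive in 20 members and negative in 18. Its median was 0.016, beside -0.0094 for all genes, and the median of its absolute value was 0.167, beside 0.177 for all genes. Values ran from -0.64 for Slc25a30 to 0.52 for Slc25a24, and 21 of the 38 members lay within 0.2 of zero. For 18 members the 95% interval of the log2 fold change lay wholly inside a 1.5-fold change either way, so for these genes a larger change was outside what the fit allowed. For the other 20, a 1.5-fold difference in at least 1 direction stayed within the interval.

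**Figure D2:**
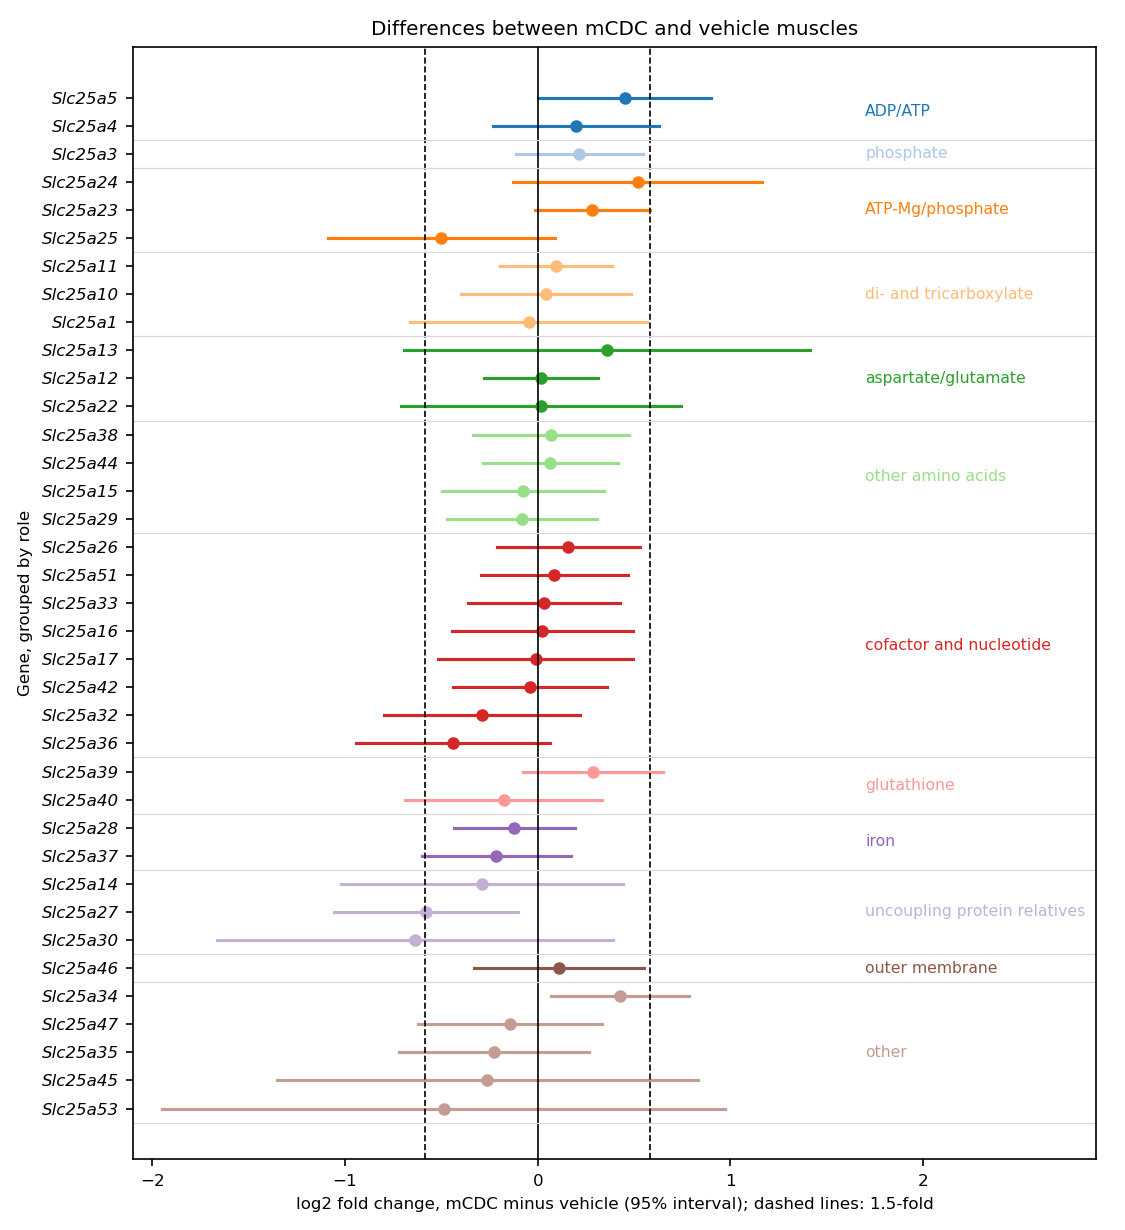
log2 fold change of mCDC over vehicle for 37 of the 38 tested Slc25 genes, grouped by role, with the 95% interval of edgeR's quasi-likelihood fit as a horizontal bar and dashed lines at a 1.5-fold change (0.585 either way). Only Slc25a5, Slc25a34 and Slc25a27 have intervals that do not cross 0, and the estimates run from -0.64 to 0.52.

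In 7 members (18.4%) both mCDC libraries lay above both vehicle libraries, and in 10 (26.3%) both lay below. Over all genes tested these shares were 19.2% and 19.5%. The 7 were Slc25a3, Slc25a4, Slc25a5, Slc25a11, Slc25a23, Slc25a34 and Slc25a39. The 10 were Slc25a14, Slc25a27, Slc25a28, Slc25a29, Slc25a30, Slc25a32, Slc25a35, Slc25a36, Slc25a37 and Slc25a47, all of which had a mean under 50 CPM. The other 21 members had libraries that overlapped between the groups. With a trend on transcript length and GC content removed, 8 members lay above (21.1%, beside 22.5% of all genes). Then 7 lay below (18.4%, beside 14.9% of all genes).

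A difference by level was also present in the whole table. Among the 11 members with a mean above 50 CPM, 10 had a positive log2 fold change, with a median of 0.11. Of the 2842 tested genes above 50 CPM, 68.6% were positive, with a median of 0.084. Among the 14 members at or under 10 CPM, 3 were positive, with a median of -0.20, where 34.8% of all genes at that level were positive, with a median of -0.13. The 13 members between these limits had a median of 0.025 beside 0.016 for all genes there. These limits on the level were chosen after the values had been seen.

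**Figure D3:**
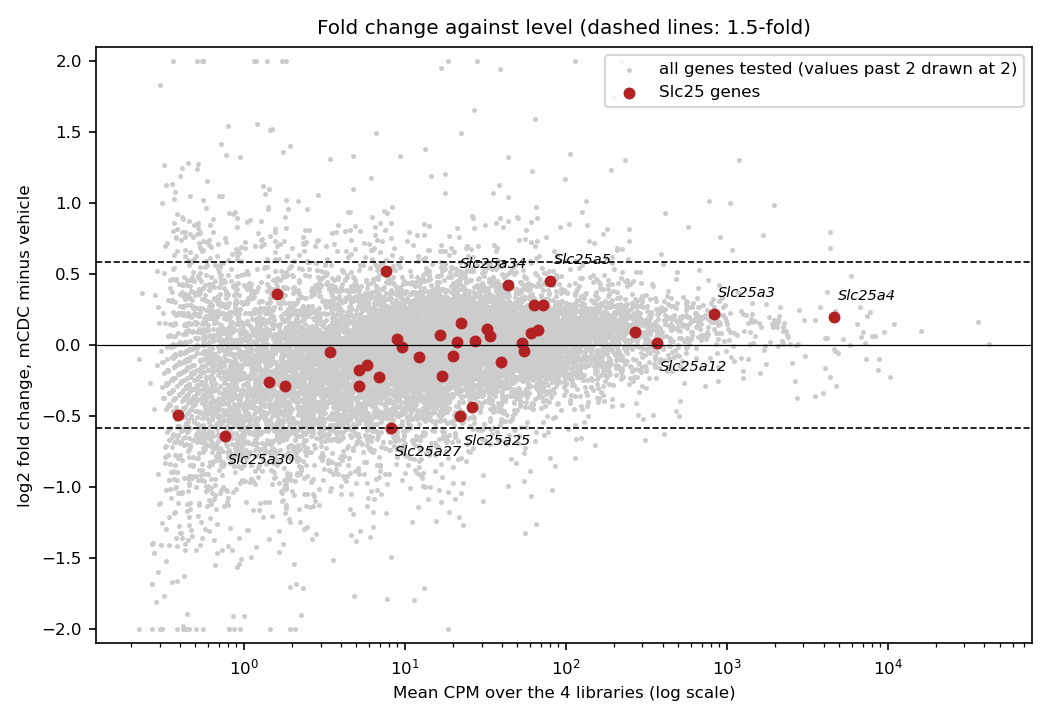
log2 fold change of mCDC over vehicle against the mean CPM over the 4 libraries (log scale) for the Slc25 genes (red) and all genes tested (grey), with dashed lines at a 1.5-fold change. Members above 50 CPM lie mostly above 0 and members at or under 10 CPM mostly below it, as do the grey points at the same levels.

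Both tested ADP/ATP carriers had more RNA in both mCDC libraries than in either vehicle library. Slc25a4 had 5034 and 4944 CPM after mCDCs and 4025 and 4672 CPM after vehicle. Its log2 fold change was 0.20 (standard error of the fit, SE, 0.19, 95% interval -0.23 to 0.63, edgeR adjusted p = 0.820), which is within the spread between replicates. The 2 mCDC libraries lay close together, and the distance to the vehicle group came mostly from vehicle replicate 1, without which the log2 fold change was 0.10. Without vehicle replicate 2 it was 0.31.

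Slc25a5, the ADP/ATP carrier found in most tissues, had 73.8 and 111.2 CPM after mCDCs and 67.6 CPM in each vehicle library. The vehicle libraries were almost equal, and mCDC replicate 2 stood above the other 3 libraries. The log2 fold change was 0.45 (SE 0.19, edgeR adjusted p = 0.714). Without mCDC replicate 2 it was 0.13, and without mCDC replicate 1 it was 0.72 and the gene was called. When 1 library of a group is left, the spread within groups comes from the other group (here 2 almost equal libraries), moderated across genes. Slc25a4 was 44.0 and 28.6 times Slc25a5 per length after mCDCs and 38.4 and 44.5 times after vehicle, so that mCDC replicate 2 had the lowest ratio and the other 3 libraries were alike. Of the 31-base words in the transcripts of Slc25a5, 49.4% also occur in 13 other annotated genes, none of which is listed in the table. Gm5560, Gm5529 and Slc25a5-ps share the most. How the reads of these genes were counted is not known, and the level of Slc25a5 is uncertain to that extent. Slc25a4 shared no such word with another gene.

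The phosphate carrier Slc25a3 had 852.7 and 952.2 CPM after mCDCs and 772.4 and 781.0 CPM after vehicle. Both mCDC libraries were higher, with a log2 fold change of 0.22 (SE 0.14, edgeR adjusted p = 0.767), which was 0.14 without mCDC replicate 2. The gene has a muscle and a general form that differ in 1 exon, and the table gives only their sum. Together with Slc25a4, this carrier feeds the ATP synthase, and their ratio per length was 0.202 and 0.230 after mCDCs and 0.229 and 0.1996 after vehicle, with no separation of the groups.

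The calcium-regulated ATP-Mg/phosphate carriers, which set the size of the adenine nucleotide pool in the matrix, had estimates of both signs. Slc25a23 (ENSMUSG00000046329.14, chr17:57043711-57059863) had 81.2 and 77.0 CPM after mCDCs and 63.6 and 66.3 CPM after vehicle. The groups were apart by more than the distance within either of them, with a log2 fold change of 0.28 (SE 0.13, edgeR adjusted p = 0.724). Slc25a25 (ENSMUSG00000026819.15, chr2:32414487-32451445) had 19.4 and 17.2 CPM after mCDCs and 33.0 and 18.8 CPM after vehicle.

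For Slc25a25 the groups overlapped, because only vehicle replicate 1 was high, and the log2 fold change of -0.50 (SE 0.26, edgeR adjusted p = 0.732) was -0.03 without that library. Without vehicle replicate 2 it was -0.85 and the gene was called. Slc25a24, the third of these carriers, had 6.63 and 11.4 CPM after mCDCs and 5.80 and 6.73 CPM after vehicle. Here mCDC replicate 2 was high and the other 3 libraries were close, and the gene was called only without mCDC replicate 1. Slc25a23 exceeded Slc25a25 per length 4.39 and 4.71 times after mCDCs and 2.02 and 3.71 times after vehicle. Of the 31-base words of Slc25a25, 4.41% are shared with the overlapping gene Naif1.

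Slc25a34 (ENSMUSG00000040740.7, chr4:141618824-141623821), a relative of the dicarboxylate carriers whose substrate is little known, had 55.2 and 45.1 CPM after mCDCs and 35.6 and 39.1 CPM after vehicle. Both mCDC libraries were higher, and the log2 fold change was 0.43 (SE 0.16, 95% interval 0.07 to 0.78, edgeR adjusted p = 0.700). It stayed between 0.27 and 0.57 when each library was left out in turn, but missed the unadjusted threshold without mCDC replicate 1 and without vehicle replicate 1. The next gene by number, Slc25a35, had a log2 fold change of -0.23. Of its 31-base words, 27.4% are shared with other genes listed in the table, Rangrf above all.

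The sequence before the start of transcription is shown for 4 members, chosen because 2 of them passed the unadjusted threshold with more RNA in mCDC muscles (Slc25a5 and Slc25a34) and 2 are close relatives whose estimates had opposite signs (Slc25a23 and Slc25a25). Each line gives the 200 bases before a RefSeq start in GRCm38.p6, read 5′ to 3′ along the gene. Capitals mark the letters GGGCGG (a GC box), CCAAT, TGACGTCA (a cAMP response element), CAGCTG (an E-box) or AAGGTCA (the core of the motif of oestrogen-related receptors, ERR), on either strand. None of these stretches overlaps an annotated exon. The start shown for Slc25a23 is the first listed with a GC box, and that for Slc25a25 the first listed with a cAMP response element.
Slc25a5 (chrX:36795397-36795596, plus strand): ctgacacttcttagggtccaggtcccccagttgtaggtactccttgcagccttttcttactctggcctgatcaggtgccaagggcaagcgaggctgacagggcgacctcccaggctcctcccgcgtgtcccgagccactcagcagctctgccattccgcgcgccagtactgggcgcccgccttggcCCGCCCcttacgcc
Slc25a34 (chr4:141623835-141624034, minus strand): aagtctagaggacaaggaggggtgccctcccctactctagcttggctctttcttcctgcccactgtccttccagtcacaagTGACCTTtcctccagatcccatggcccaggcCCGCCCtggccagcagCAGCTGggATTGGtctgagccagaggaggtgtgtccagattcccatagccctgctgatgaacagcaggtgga
Slc25a23 (chr17:57059864-57060063, minus strand, 1 of 2 starts): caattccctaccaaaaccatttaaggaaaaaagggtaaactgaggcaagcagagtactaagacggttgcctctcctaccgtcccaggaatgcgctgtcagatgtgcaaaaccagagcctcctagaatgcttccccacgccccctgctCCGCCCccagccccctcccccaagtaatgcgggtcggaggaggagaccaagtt
Slc25a25 (chr2:32424067-32424266, minus strand, 1 of 3 starts): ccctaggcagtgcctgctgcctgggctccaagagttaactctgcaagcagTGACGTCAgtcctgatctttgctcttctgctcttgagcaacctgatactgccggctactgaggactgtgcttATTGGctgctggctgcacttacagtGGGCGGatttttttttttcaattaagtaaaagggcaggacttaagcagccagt

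RefSeq promoter windows of 250 bases before to 50 after the start were found for 35 of the 46 members, 45 windows in all. The GC box letters GGGCGG were in 82.2% of these windows, in 35.7% of all 32851 windows and in 60.7% of the 13024 windows of tested genes. CCAAT was in 48.9% of them and in 37.0% of the windows of tested genes, and TATAAA in 4.4% and 7.53%. The ERR core AAGGTCA was found in 1 member, Slc25a34, where its first base lies 119 bases before the start. It was in 3.26% of the windows of tested genes. TGACGTCA was found in 2 windows, belonging to 2 members, Slc25a25 and Slc25a36, and in 2.91% of the windows of tested genes. In Slc25a25 it lies 150 bases before the start shown, which was chosen from 3 starts because it holds these letters. CAGCTG was in 5 windows (11.1%), beside 16.1%, and AAGATGGCG, the letters of a YY1 site, in 1 window, that of Slc25a3, beside 2.74%. A match of letters is a description of the sequence and not of binding.

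The relatives of the uncoupling proteins, which are proton or anion carriers best known from brain and kidney, were low and had negative estimates in all 3 cases, none of them called. Of all genes at or under 10 CPM, 34.8% had positive estimates. Slc25a27 (ENSMUSG00000023912.10, chr17:43641891-43667214), also known as UCP4, had 7.23 and 5.94 CPM after mCDCs and 9.16 and 10.6 CPM after vehicle. Both mCDC libraries were lower, with a log2 fold change of -0.581 (SE 0.21, edgeR adjusted p = 0.684), just short of the 0.585 that a call needs. It was the member with the smallest p, and it was called when at least 10 counts were required in every library and when mCDC replicate 1 or vehicle replicate 1 was left out. Without mCDC replicate 2 or vehicle replicate 2 it was -0.45 and -0.47, and missed the unadjusted threshold. Slc25a14 had 1.36 and 1.92 CPM after mCDCs and 1.95 and 2.04 CPM after vehicle. Slc25a30 had 0.682 and 0.502 CPM after mCDCs and 1.11 and 0.764 CPM after vehicle, from 11 to 29 counts. The libraries of both genes were apart between the groups by a small margin, and their log2 fold changes of -0.29 and -0.64 had standard errors of 0.32 and 0.45.

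**Figure D4:**
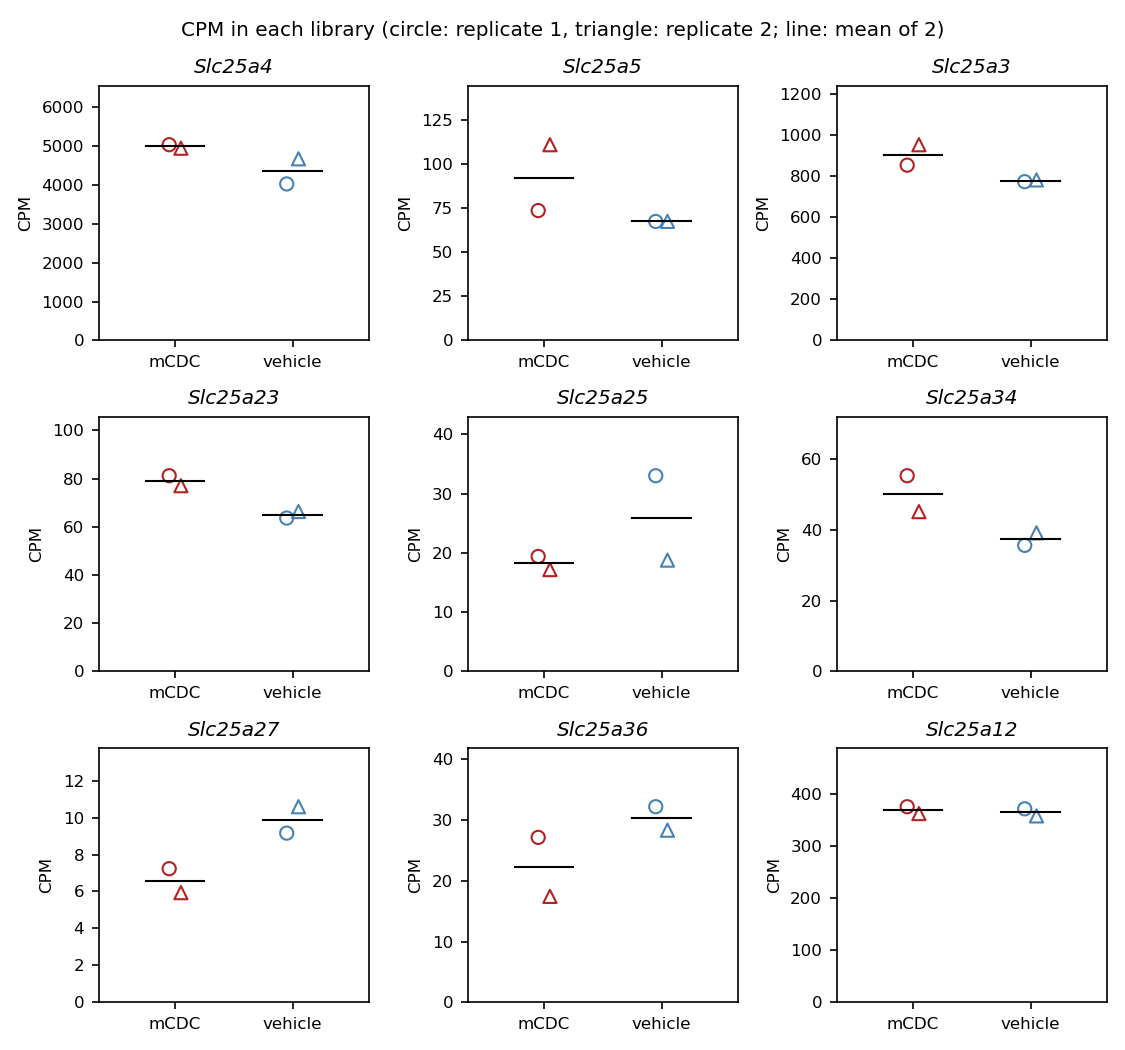
CPM in each library for 9 Slc25 genes (red, mCDC; blue, vehicle; circle, replicate 1; triangle, replicate 2; black line, mean of the 2 libraries), each axis starting at 0. The groups lie apart for Slc25a23, Slc25a34 and Slc25a27, a single library is far from the other 3 for Slc25a5 and Slc25a25, and the 4 libraries of Slc25a12 lie between 358.0 and 375.7 CPM.

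The iron carriers also had less RNA in both mCDC libraries, by small amounts. The mitoferrins bring iron into the matrix for haem and iron-sulphur clusters, Slc25a37 mainly in red blood cell precursors and Slc25a28 in most other cells. Slc25a28 had 37.7 and 38.4 CPM after mCDCs and 40.2 and 42.6 CPM after vehicle, a log2 fold change of -0.12 (SE 0.14, 95% interval -0.44 to 0.19). Slc25a37 had 14.6 and 17.0 CPM after mCDCs and 17.7 and 19.0 CPM after vehicle, a log2 fold change of -0.21 (SE 0.17) that was -0.11 without mCDC replicate 1. With all 4 libraries the 95% interval of Slc25a37 was -0.60 to 0.17, and neither gene was called (edgeR adjusted p = 0.845 and 0.785). Slc25a28 was 7.02 and 6.12 times Slc25a37 per length after mCDCs and 6.16 and 6.11 times after vehicle.

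Markers of blood had negative estimates, as Slc25a37 did, but their sums overlapped between the groups. The summed level of 7 red blood cell markers was 440 and 454 CPM after mCDCs and 392 and 719 CPM after vehicle. All 7 had negative log2 fold changes, and 1, Hba-a2, was called lower (2.74% of all genes). It had 14.5 and 14.8 CPM after mCDCs and 28.6 and 31.7 CPM after vehicle. The more abundant Hba-a1 overlapped between the groups, with 234 and 243 CPM after mCDCs and 199 and 369 CPM after vehicle. Alas2, the first enzyme of haem synthesis in red cell precursors, had 4.62 and 4.34 CPM after mCDCs and 4.73 and 9.50 CPM after vehicle, with both mCDC libraries lower. Hbb-b2 and Hbb-bt held identical values, so they are not separate measurements. Their part in the values of Slc25a37 was not tested. In whole muscle, fewer cells of a type and less RNA per cell cannot be told apart.

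The carriers of the malate-aspartate shuttle had estimates of at most 0.10, other than the scarce Slc25a13. Slc25a12 had 375.7 and 362.5 CPM after mCDCs and 371.6 and 358.0 CPM after vehicle, a log2 fold change of 0.02 (95% interval -0.28 to 0.31), or 0.19 with the length and GC trend removed. The 4 libraries alternated between the groups, and the interval lay inside a 1.5-fold change either way. Slc25a11 had 283.4 and 272.2 CPM after mCDCs and 257.7 and 261.9 CPM after vehicle. Both mCDC libraries were higher, by a log2 fold change of 0.10 (SE 0.13, edgeR adjusted p = 0.866), or 0.04 with the trend removed. It shares 7.37% of its 31-base words with the overlapping gene Rnf167. Slc25a13, the liver form of the aspartate/glutamate carrier, was scarce, with 1.060 and 2.604 CPM after mCDCs and 1.603 and 1.201 CPM after vehicle. Only mCDC replicate 2 was high, and without it the log2 fold change went from 0.36 to -0.40.

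Slc25a12 exceeded Slc25a13 per length 174 and 68.4 times after mCDCs and 114 and 147 times after vehicle. The glutamate carrier Slc25a22 had the largest SE (0.32) of the 11 members above 50 CPM, with 63.7 and 44.2 CPM after mCDCs and 35.0 and 71.7 CPM after vehicle. Its highest and lowest libraries were both vehicle libraries, and it was called higher when vehicle replicate 2 was left out. The remaining carriers of citric acid cycle intermediates were low. Slc25a10, the dicarboxylate carrier, had a log2 fold change of 0.04, and Slc25a1, the citrate carrier that supplies cytosolic acetyl-CoA, one of -0.05.

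Of the amino acid carriers, Slc25a44, which imports branched-chain amino acids, had 33.4 and 35.4 CPM after mCDCs and 35.7 and 30.1 CPM after vehicle. These overlapped, with a log2 fold change of 0.07 (95% interval -0.29 to 0.42). Slc25a29, a carrier of basic amino acids, had 12.2 and 11.8 CPM after mCDCs and 12.4 and 13.0 CPM after vehicle. The mCDC libraries were lower by a log2 fold change of -0.08, under its standard error of 0.17. It was -0.05 without vehicle replicate 2 and -0.15 with the length and GC trend removed. The starts of Slc25a29 and Slc25a47 face each other on chromosome 12, where the first gene ends at 108835883 and the second begins at 108836046, and Slc25a47 had a log2 fold change of -0.14. Slc25a38, the glycine carrier needed for haem synthesis, had 0.07 and Slc25a15, the ornithine carrier, had -0.08.

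The cofactor and nucleotide carriers were 9 genes, 5 with positive and 4 with negative log2 fold changes. The best expressed by counts was Slc25a51, which brings NAD+ into the matrix, with 66.8 and 59.5 CPM after mCDCs and 67.4 and 51.5 CPM after vehicle. The groups overlapped, with a log2 fold change of 0.09 (SE 0.17). Slc25a36 (ENSMUSG00000032449.13, chr9:97074961-97111157), a pyrimidine nucleotide carrier, had 27.2 and 17.4 CPM after mCDCs and 32.2 and 28.3 CPM after vehicle. Both mCDC libraries were lower, replicate 2 by far the more, with a log2 fold change of -0.44 (SE 0.22, edgeR adjusted p = 0.725). It was called without mCDC replicate 1, at -0.79, and was -0.16 without mCDC replicate 2. With a trend on transcript length and GC content removed it was -0.27.

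The other members of this group described here were closer to zero. Slc25a33, the second pyrimidine nucleotide carrier, had a log2 fold change of 0.03. Slc25a26, which carries S-adenosylmethionine, had 0.16. Slc25a16 and Slc25a42, both linked to coenzyme A, had 0.02 and -0.04, and the peroxisomal carrier Slc25a17 had -0.01. Slc25a32, the folate and flavin carrier, was lower in both mCDC libraries, with a log2 fold change of -0.29 (SE 0.22).

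The glutathione carriers differed in sign. Slc25a39 had 61.2 and 78.1 CPM after mCDCs and 55.0 and 59.2 CPM after vehicle, so that both mCDC libraries were higher and replicate 2 by more. The log2 fold change was 0.29 (SE 0.16, edgeR adjusted p = 0.740) and was 0.10 without mCDC replicate 2. With mCDC replicate 1 left out it was 0.45 and passed the unadjusted threshold. Slc25a40, its close relative, had a log2 fold change of -0.18 (SE 0.22). Slc25a39 was 19.5 and 28.2 times Slc25a40 per length after mCDCs and 15.5 and 18.9 times after vehicle. Both mCDC ratios were above both vehicle ratios, that of mCDC replicate 1 by a small margin. Slc25a40 had only 100 to 154 counts per library.

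Slc25a46, which sits in the outer membrane and takes part in mitochondrial fission and fusion, had 72.4 and 67.3 CPM after mCDCs and 77.2 and 52.3 CPM after vehicle. The vehicle libraries were the highest and the lowest, and the log2 fold change of 0.11 turned to -0.15 without vehicle replicate 2. Slc25a45 and Slc25a53, with at most 62 counts in any library, had log2 fold changes of -0.26 and -0.49 with standard errors of 0.47 and 0.63.

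Summed over all 46 genes, the family's level was 3729 and 3749 CPM per kb after mCDCs and 3113 and 3455 after vehicle. As a share of all counts it was 0.723% and 0.721% after mCDCs and 0.634% and 0.719% after vehicle. Both mCDC libraries were higher on each scale, but vehicle replicate 2 came within a small margin of them as a share of counts. Without Slc25a4 the sum was 1114 and 1181 CPM per kb after mCDCs and 1022 and 1028 after vehicle, of which Slc25a3 was the largest part.

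Other genes that act with the carriers were counted as a list. Of 32 such genes, 30 were tested and none was called. 23 had positive log2 fold changes, with a median of 0.085. In 11 both mCDC libraries lay above both vehicle libraries, and in 1, the citrate-cleaving enzyme Acly, both lay below, where 19.2% and 19.5% of all genes did. All 4 enzymes of the malate-aspartate shuttle, Got1, Got2, Mdh1 and Mdh2, were higher in both mCDC libraries, with a median log2 fold change of 0.23. These genes are abundant, and 68.6% of all genes above 50 CPM were also positive.

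Got1, the cytosolic aspartate aminotransferase, had 541.8 and 649.3 CPM after mCDCs and 478.7 and 463.2 CPM after vehicle, a log2 fold change of 0.34 (SE 0.15, edgeR adjusted p = 0.714). Ppif and Ckmt2, the matrix cyclophilin and the mitochondrial creatine kinase, which are linked to the ADP/ATP carriers, had 0.32 and 0.27. Among the 3 outer membrane channels and 6 genes of the calcium uniporter, the largest log2 fold changes were those of Mcu and Vdac2, 0.29 and 0.28. Of the carrier genes named outside the Slc25a series, Ucp3, the uncoupling protein of muscle, had 87.1 and 51.2 CPM after mCDCs and 61.0 and 113.8 CPM after vehicle. These overlapped widely, with a log2 fold change of -0.34 (SE 0.32). Ucp2 had -0.10, and Ucp1 had at most 1 count.

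Fibre type and the share of other cells could bear on levels in whole muscle, and their markers were measured in the same libraries. The slow fibre markers Myh7, Myl2, Tnni1, Tnnt1, Tnnc1 and Atp2a2 were abundant and summed to 84631 and 72925 CPM after mCDCs and 83255 and 68749 CPM after vehicle. None of the 6 was called, and 4 were higher in both mCDC libraries, as were 19.2% of all genes. The 6 fast fibre markers summed to between 24681 and 30150 CPM with no separation of the groups. Single fast myosins differed widely between libraries, with 2096 and 47.5 CPM of Myh4 after mCDCs and 163 and 411 CPM after vehicle, and 4162 and 603 CPM of Myh1 after mCDCs and 4490 and 1661 CPM after vehicle. The fibroblast markers summed to 264 and 238 CPM after mCDCs and 275 and 453 CPM after vehicle, and 3 of 5 were called lower, as were 2.74% of all genes.

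All 5 endothelial markers had negative log2 fold changes, with sums of 106 and 85.6 CPM after mCDCs and 89.9 and 187 CPM after vehicle. The 6 adipocyte markers summed to 152 and 149 CPM after mCDCs and 187 and 217 CPM after vehicle, of which Fabp4 alone was 124 and 199.9 CPM after vehicle. The other 5, Adipoq, Plin1, Cidec, Lep and Cfd, were highest in vehicle replicate 1 and lowest in vehicle replicate 2. The 6 macrophage markers summed to 17.9 and 27.4 CPM after mCDCs and 18.2 and 24.0 CPM after vehicle, where Cd68 was called higher and Csf1r lower (1.26% and 2.74% of all genes). Cd68 had 4.13 and 15.4 CPM after mCDCs and 2.71 and 4.15 CPM after vehicle, so that only mCDC replicate 2 was high. A list of 8 Schwann cell markers, added after the values had been seen, summed to 66.2 and 69.2 CPM after mCDCs and 64.0 and 89.1 CPM after vehicle. No marker on these lists was at 0 in all libraries. The sums for blood, endothelial cells, fibroblasts and Schwann cells were highest in vehicle replicate 2. So was the adipocyte sum, of which Fabp4 was the largest part. The part of any of these cells in the values of the carriers was not tested.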

How the data were processed

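Total RNA from soleus muscles was sequenced as single-end reads. Per the labels' processing notes the authors used Bowtie2 2.1.0, RSEM 1.2.15 and build mm10, which is GRCm38. They deposited expected counts per gene with no normalization, of which 15.7% (zeros included) were more than 0.001 from a whole number. The sources name 2 different library kits, so whether strand was used is not settled, and genes that overlap or share sequence are uncertain. Groups came from the sample titles, and nothing names the animals, so p-values measure the spread between these 4 libraries.

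After rounding, low rows were dropped by filterByExpr, TMM factors were applied and the quasi-likelihood F-test of edgeR 4.0.16 (legacy set to FALSE; R 4.3.3) compared 2 libraries with 2. With 2 against 2, no exact permutation test of a single gene can pass 0.05. Standard errors (SE) were derived from the log2 fold change and its F statistic. Names, positions and lengths came from the GENCODE annotation of GRCm38, which matched 46 of 46 members. The script was tested on simulated data. DESeq2 1.42.0 and the other alternatives are described in the closing section.

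The members and gene lists were chosen with earlier results of these data known. Values in every library were given for members with an unadjusted p under 0.05, for the best expressed member and the one with the smallest p in each role group, and for 9 members set by name. Slc25a14, Slc25a18, Slc25a22, Slc25a24, Slc25a30, Slc25a31 and Slc25a41 were added after their values had been seen. The excepted gene was left out throughout, and 1 tested member is counted in the totals but not reported here.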

Additional observations from a re-analysis of the deposited data

How the results depend on the processing

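No member was called with RLE size factors, DESeq2, edgeR's likelihood ratio test, the length and GC trend removed, or the replicate block. The replicate numbers did not pair the libraries (correlation of deviations -0.0155), and with the replicate block the median log2 fold change was 0.029. Requiring at least 10 counts in every library called 1 member lower, Slc25a27. With no fold minimum 2 members were higher and 1 lower. With the trend removed the members' median was -0.017, and that of all genes went from -0.0094 to 0.032. The share of all calls that were higher went from 31.5% to 43.3% there. Of the 18 members chosen by the stated rule, 8 moved by over 1.5 times with the trend removed, to 0.04 for Slc25a11, 0.19 for Slc25a12, -0.20 for Slc25a28, -0.15 for Slc25a29, -0.27 for Slc25a36, -0.13 for Slc25a37, 0.25 for Slc25a46 and 0.19 for Slc25a51. When each library was left out in turn, members called higher ran from 0 to 3 and lower from 0 to 2 (0.8% to 2.83% and 1.69% to 5.97% of all genes), and the median from -0.031 to 0.048. Members with mCDC libraries above vehicle libraries then numbered 11 to 15 (28.2% to 38.5% of members, 30.1% to 36.7% of all genes), and below 12 to 18 (31.6% to 46.2% of members, 30.1% to 38.5% of all genes), since fewer libraries overlap less. Without mCDC replicate 1 the calls were Slc25a5, Slc25a18, Slc25a24, Slc25a27 and Slc25a36, without vehicle replicate 1 Slc25a27, and without vehicle replicate 2 Slc25a22 and Slc25a25. Among the 18 members chosen by the stated rule, leaving out a library turned the sign of 5. Their log2 fold changes ran from -0.011 to 0.048 for Slc25a12, -0.40 to 0.90 for Slc25a13, -0.055 to 0.20 for Slc25a44, -0.15 to 0.42 for Slc25a46 and -0.095 to 0.30 for Slc25a51. The causes were not tested. The unadjusted p threshold was missed by Slc25a5 with the 10-count minimum, with the trend removed, without mCDC replicate 2 and without either vehicle replicate, and by Slc25a27 and Slc25a34 without 2 of the 4 libraries each. With 1 library left in a group, that library is assumed to vary like those of the other group. The 95% intervals of 20 tested members reached past a 1.5-fold change.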
